A study of Saccharomyces cerevisiae with 16 samples.

Results

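The second step of a phosphate starvation response was followed in Saccharomyces cerevisiae by setting the libraries taken 30, 45 and 60 min after the loss of phosphate against the library taken at 15 min, the first one without phosphate. The comparison uses 4 of the 16 RNA sequencing libraries of the time course, and within them the 4621 genes, of 6648 named once in the table, that have a value in all 4. All libraries come from a strain labelled with the BY4741 background, a MATa laboratory strain, and the genotype pho84pr-YFP, delta-phm4. It therefore carries a YFP reporter under the promoter of the phosphate transporter gene PHO84 and is labelled as lacking PHM4, another name of VTC1, which encodes a small subunit of the polyphosphate polymerase in the vacuole membrane. Cells were grown with high phosphate (the 0 min library), washed, and moved to medium with no phosphate. The labels do not say whether the times come from 1 culture. Since the control library at 0 min carries the same alleles, no value below measures an effect of the deletion. Each time is a single library, so the 3 later libraries are successive times and not replicates, and any SD over them holds both change over time and error.

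In budding yeast a loss of phosphate lets the transcription factor Pho4 stay in the nucleus, where with Pho2 it turns on the PHO regulon of acid phosphatases, phosphate transporters and polyphosphate enzymes. Cells also pass nutrient loss on to the growth programme: genes for ribosomal proteins and for ribosome assembly, which take a large part of all transcription in growing cells, are reduced, while genes of the general stress response driven by Msn2 and Msn4 are raised. Heat shock factor Hsf1 separately keeps up the genes of cytosolic chaperones.

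Levels are given as CPM, reads per 1000000 reads of the listed genes, and differences as log2 units, the mean of the log2 CPM at 30, 45 and 60 min minus that at 15 min. The libraries of 15, 30, 45 and 60 min hold 1354092, 603426, 1874301 and 1043131 reads in listed genes, recovered from the steps between low values. A gene with fewer than 10 reads in a library has no value there, a floor of 7.39, 16.6, 5.34 and 9.59 CPM. The shallow 30 min library alone removed 435 genes from the comparison. The median log2 CPM of the genes compared stayed between 6.16 and 6.22 in the 4 libraries. VTC1 was listed in every library, at 156, 177, 112 and 172 CPM at 15, 30, 45 and 60 min, against its label. Of the genes that BY4741 lacks, LEU2 and MET17 were not listed in any library. HIS3 was listed at 0 min with 13 reads, and URA3 at 0, 90 and 180 min with 16, 18 and 12 reads. The 6 MATa markers, all of them listed, summed to 3314, 4338 and 5499 CPM at 30, 45 and 60 min, against 2840 CPM at 15 min. Of 16 markers of MATalpha, diploid or sporulating cells, 4 to 9 were listed, with summed levels of 159, 199 and 284 CPM at 30, 45 and 60 min, against 201 CPM at 15 min. In such bulk samples, a change in the mixture of cells and a change in RNA per cell cannot be told apart.

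The promoters of 6 genes are shown first, as examples from the main patterns of the second step, and letters in capitals mark motifs found in them. Each of the 6 windows holds its motif, which not every window of leading genes did. Each window holds the 300 bases that end 100 bases before the coding start in build R64, read on the strand of the gene and taken from the RefSeq genome. PHO5 (chrII:431052-431351, minus strand) encodes the main secreted acid phosphatase, and its window holds CACGTG and CACGTT, forms of the Pho4 motif. TSL1 (chrXIII:70224-70523, plus strand) encodes a subunit of trehalose synthase, and its window holds 5 copies of AGGGG, the stress response element of Msn2 and Msn4. STI1 (chrXV:380653-380952, plus strand) encodes a cochaperone of Hsp90 and Hsp70, and its window holds 2 copies of a heat shock element, 3 alternating units of TTC and GAA. The window of SSA4, the chaperone gene with the largest difference, held 0 copies of this element, and that of SSA1 held 3. The window of PHO84 held CACGTT but not CACGTG, and its promoter outside the window was not searched. NSR1 (chrVII:807757-808056, minus strand) encodes a nucleolar protein of ribosome assembly, and DBP2 (chrXIV:413239-413538, plus strand) an RNA helicase. Both windows hold GATGAG, the PAC motif, and AAAATTTT, the RRPE motif, side by side. GLN1 (chrXVI:641808-642107, plus strand) encodes glutamine synthetase, and its window holds TGACTC, the motif of the amino acid starvation factor Gcn4. Motifs were searched on both strands, so that the capitals may spell the reverse complement.
PHO5: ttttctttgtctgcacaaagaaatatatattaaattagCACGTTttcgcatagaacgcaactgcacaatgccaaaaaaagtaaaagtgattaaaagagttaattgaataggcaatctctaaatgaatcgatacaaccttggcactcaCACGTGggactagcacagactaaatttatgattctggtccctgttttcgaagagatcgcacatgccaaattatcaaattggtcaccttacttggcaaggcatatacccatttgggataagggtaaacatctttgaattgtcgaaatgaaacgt
TSL1: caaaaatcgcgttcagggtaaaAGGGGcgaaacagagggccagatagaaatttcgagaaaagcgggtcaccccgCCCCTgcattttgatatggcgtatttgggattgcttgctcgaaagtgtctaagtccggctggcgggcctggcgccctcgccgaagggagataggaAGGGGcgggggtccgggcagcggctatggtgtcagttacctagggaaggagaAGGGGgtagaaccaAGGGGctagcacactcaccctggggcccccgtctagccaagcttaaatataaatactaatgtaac
STI1: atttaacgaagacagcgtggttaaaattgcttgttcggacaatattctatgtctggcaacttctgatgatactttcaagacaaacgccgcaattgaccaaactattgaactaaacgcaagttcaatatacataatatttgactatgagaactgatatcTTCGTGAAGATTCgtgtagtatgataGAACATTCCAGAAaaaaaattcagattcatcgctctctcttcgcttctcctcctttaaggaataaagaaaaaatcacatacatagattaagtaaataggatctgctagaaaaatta
NSR1: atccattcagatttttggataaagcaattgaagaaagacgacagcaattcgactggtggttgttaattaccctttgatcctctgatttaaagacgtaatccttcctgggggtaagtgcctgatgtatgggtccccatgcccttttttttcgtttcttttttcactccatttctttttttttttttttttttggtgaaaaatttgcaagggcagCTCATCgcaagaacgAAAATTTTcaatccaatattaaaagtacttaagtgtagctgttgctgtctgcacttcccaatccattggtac
DBP2: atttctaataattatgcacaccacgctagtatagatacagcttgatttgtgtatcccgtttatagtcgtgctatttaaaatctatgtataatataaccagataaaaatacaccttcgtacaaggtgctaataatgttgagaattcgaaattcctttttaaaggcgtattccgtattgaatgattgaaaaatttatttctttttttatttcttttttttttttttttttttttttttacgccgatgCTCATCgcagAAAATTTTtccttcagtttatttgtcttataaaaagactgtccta
GLN1: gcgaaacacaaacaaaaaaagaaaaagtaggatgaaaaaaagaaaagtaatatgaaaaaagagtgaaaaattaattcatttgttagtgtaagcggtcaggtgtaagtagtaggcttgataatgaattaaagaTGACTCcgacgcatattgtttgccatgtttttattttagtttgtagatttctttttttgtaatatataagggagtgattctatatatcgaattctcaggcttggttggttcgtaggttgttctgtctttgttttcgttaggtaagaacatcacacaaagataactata

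A gene was called when its mean difference reached 2-fold and its sign was the same in each of the 3 later libraries. By this rule 166 genes were higher at 30 to 60 min than at 15 min, 3.59% of those compared, and 318 were lower, 6.88%. The median difference over all genes was 0.03, with quartiles of -0.31 and 0.34. Differences ran from -2.74 for DBP3, a helicase of ribosome assembly, to 2.50 for SSA4, an inducible Hsp70 chaperone. A change of 4-fold was reached by 16 of the higher and 12 of the lower genes. The called genes were spread unevenly over the 3 later times. Of the higher genes, 25 were at their highest at 30 min, 41 at 45 min and 100 at 60 min. Of the lower genes, 21 were at their lowest at 30 min, 136 at 45 min and 161 at 60 min.

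In tests on these 4 libraries the spread between 30, 45 and 60 min stands in for error. With limma, 3 libraries against 1, only SSA4 passed after Benjamini-Hochberg adjustment (adjusted p = 0.036; 0.0216% of genes), a call lost with library medians centred, and no gene passed as lower (0.0%), although 717 genes had an unadjusted p under 0.05. A limma slope over the 4 times, which takes a steady change as signal, called 315 genes rising (6.82%) and 426 falling (9.22%). Among the genes called by fold, 118 of 166 and 256 of 318 passed this slope test in their direction. The slope uses the same 4 libraries as the fold rule, so this overlap is no separate support for the calls. Slopes below are log2 changes per 45 min, the span from 15 to 60 min. Their p-values rest on the scatter around a line in single libraries. In the comparison of later libraries with 15 min, the number of genes called changed widely when the 30 min library was left out. Counts of test calls thus rest on which libraries enter.

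**Figure D1:**
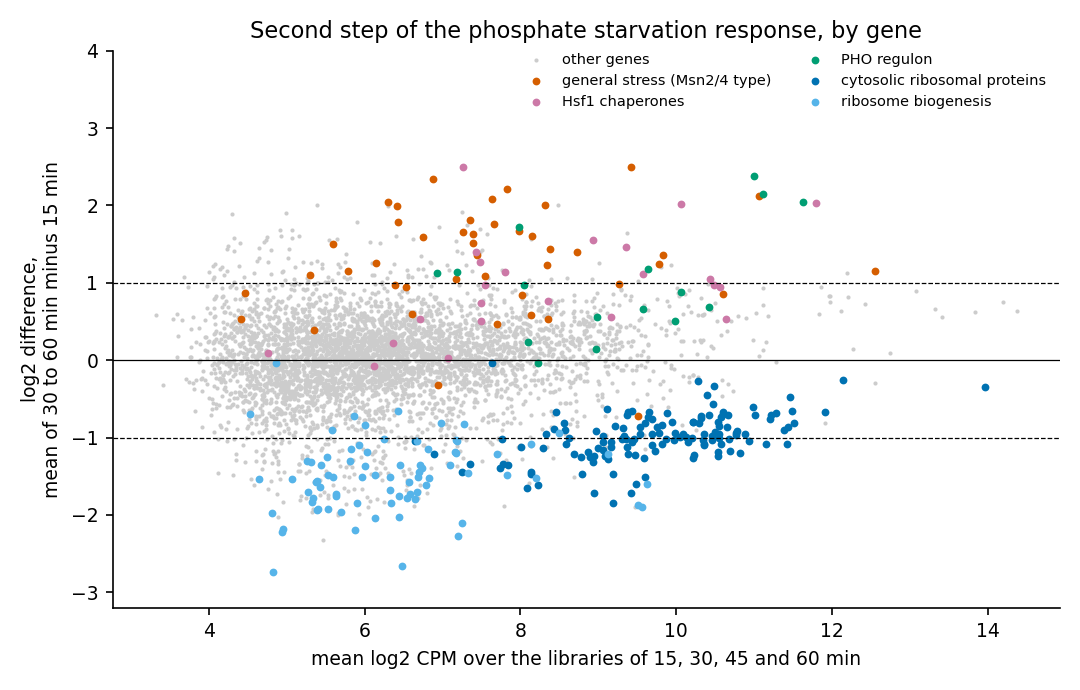
Mean log2 difference of 30, 45 and 60 min from 15 min (vertical axis) against the mean log2 CPM over the 4 libraries (horizontal axis), 1 point per gene for the 4621 genes, with 5 gene lists coloured and dashed lines at 2-fold. Ribosome assembly and ribosomal protein genes lie below 0, around medians of -1.51 and -0.997, and stress, chaperone and PHO genes mostly above it, around 1.31, 0.97 and 0.93.

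Second steps of the PHO regulon ran from near 0 to over 4-fold. Of 19 genes on the list, 16 had values in all 4 libraries, 7 of these (43.8%, against 3.59% of all genes) were called higher and none lower, and the median difference was 0.93, against 0.03 for all genes. In 15 of the 16 all 3 later libraries lay above 15 min, as they did in 1515 of the 4621 genes compared. The same members had already moved by a median of 2.33 from 0 to 15 min. The 3 acid phosphatases of the cell surface led the second step. PHO5 stood at 594, 1743, 3691 and 4589 CPM at 15, 30, 45 and 60 min, against 179 CPM with high phosphate. Each library exceeded the one before it, and the mean difference from 15 min was 2.38 ± 0.73 (SD over 3 times; slope 2.98, limma adjusted p = 1.07e-08). PHO11 stood at 730, 2341, 3369 and 4245 CPM and PHO12 at 1099, 3400, 5038 and 5416 CPM over the same times. These genes are near-identical copies whose reads the counting could split, so their separate values are uncertain, but both were higher than at 15 min in all 3 later libraries. Together PHO5, PHO11 and PHO12 took 0.748%, 1.21% and 1.43% of reads at 30, 45 and 60 min, against 0.242% at 15 min.

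The phosphate transporters and regulators named here showed smaller second steps than these acid phosphatases. PHO84, the high-affinity transporter, stood at 783, 933, 1250 and 1172 CPM at 15, 30, 45 and 60 min, against 55.6 CPM at 0 min. Its difference of 0.50 ± 0.22 came after a first step of 3.82, and its log2 CPM went on to 10.62 at 90 min, against 9.61 at 15 min. SPL2, a small protein that limits low-affinity phosphate transport, had a first step of 3.52 and a second of 0.67 ± 0.18. PHO89, the sodium-coupled transporter, stood at 321, 313 and 302 CPM at 30, 45 and 60 min, against 159 CPM at 15 min. Over these 3 times it was flat, at 0.98 ± 0.05, just short of the 2-fold rule. Its log2 CPM then rose from 8.24 at 60 min to 8.87 at 75 min and 9.07 at 90 min. PHO81, the inhibitor of the Pho80 and Pho85 kinase, stood at 254, 305 and 345 CPM, against 306 CPM at 15 min, so the later libraries lay on both sides of the earlier one (difference -0.04 ± 0.22).

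Genes of internal phosphate stores and salvage ran from -0.05 for VTC1 to 1.72 for PHM8. PHM8, a phosphatase that frees phosphate from nucleotides, stood at 235, 364 and 458 CPM at 30, 45 and 60 min, against 103 CPM at 15 min, a difference of 1.72 ± 0.49 (slope 2.12, limma adjusted p = 1.4e-06). PHO8, the vacuolar alkaline phosphatase, stood at 113, 166 and 174 CPM, against 67.9 CPM at 15 min (1.13 ± 0.34). GDE1, which cleaves glycerophosphocholine, stood at 197, 173 and 165 CPM, against 80.5 CPM at 15 min. It was highest at 30 min and its slope did not pass (adjusted p = 0.094). GIT1, the transporter of glycerophosphoinositol, had no value at 0 or 15 min and was listed at 18.2, 32.0 and 36.4 CPM at 30, 45 and 60 min. In the polyphosphate polymerase complex, VTC3 and VTC4 were flat from 30 to 60 min. VTC3 stood at 1556, 1537 and 1548 CPM, against 959 CPM at 15 min, and VTC4, the catalytic subunit, at 1223, 1262 and 1250 CPM, against 677 CPM at 15 min. From 60 to 75 min their log2 CPM rose again, from 10.60 to 10.94 for VTC3 and from 10.29 to 10.58 for VTC4. VTC2 differed by 0.56 ± 0.07. VTC1 itself differed by -0.05 ± 0.37, with later values on both sides of that at 15 min.

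Of 12 genes of phosphate signalling and constitutive transport, 2 were called lower (16.7%, against 6.88% of all genes) and none higher, with 6 above 0 and a median of -0.02. PHO90, a low-affinity transporter, stood at 64.6, 38.4 and 33.6 CPM at 30, 45 and 60 min, against 138 CPM at 15 min and 140 CPM at 0 min. Its difference was -1.66 ± 0.50 (slope -2.06, limma adjusted p = 0.000438). PHO3, an acid phosphatase next to PHO5 that is expressed with phosphate, stood at 126, 48.5 and 36.8 CPM, against 146 CPM at 15 min (-1.27 ± 0.93). Without the 60 min library its difference was -0.90, short of 2-fold. PHO87, the other low-affinity transporter of the plasma membrane, was lower in all 3 libraries but was not called (-0.81 ± 0.37). The mRNAs of PHO4, PHO2, PHO80 and PHO85 differed by 0.48, 0.05, -0.08 and -0.41, none of them called.

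Pho4 motifs were common in PHO regulon promoters. Of the 16 windows, 68.8% held CACGTG and 37.5% held CACGTT, against 4.55% and 9.85% of 6001 promoters in all. CACGTG stood in 4 of the 7 members called higher and 7 of the 9 not called. CACGTT stood in 4 of the 7 and 2 of the 9.

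**Figure D2:**
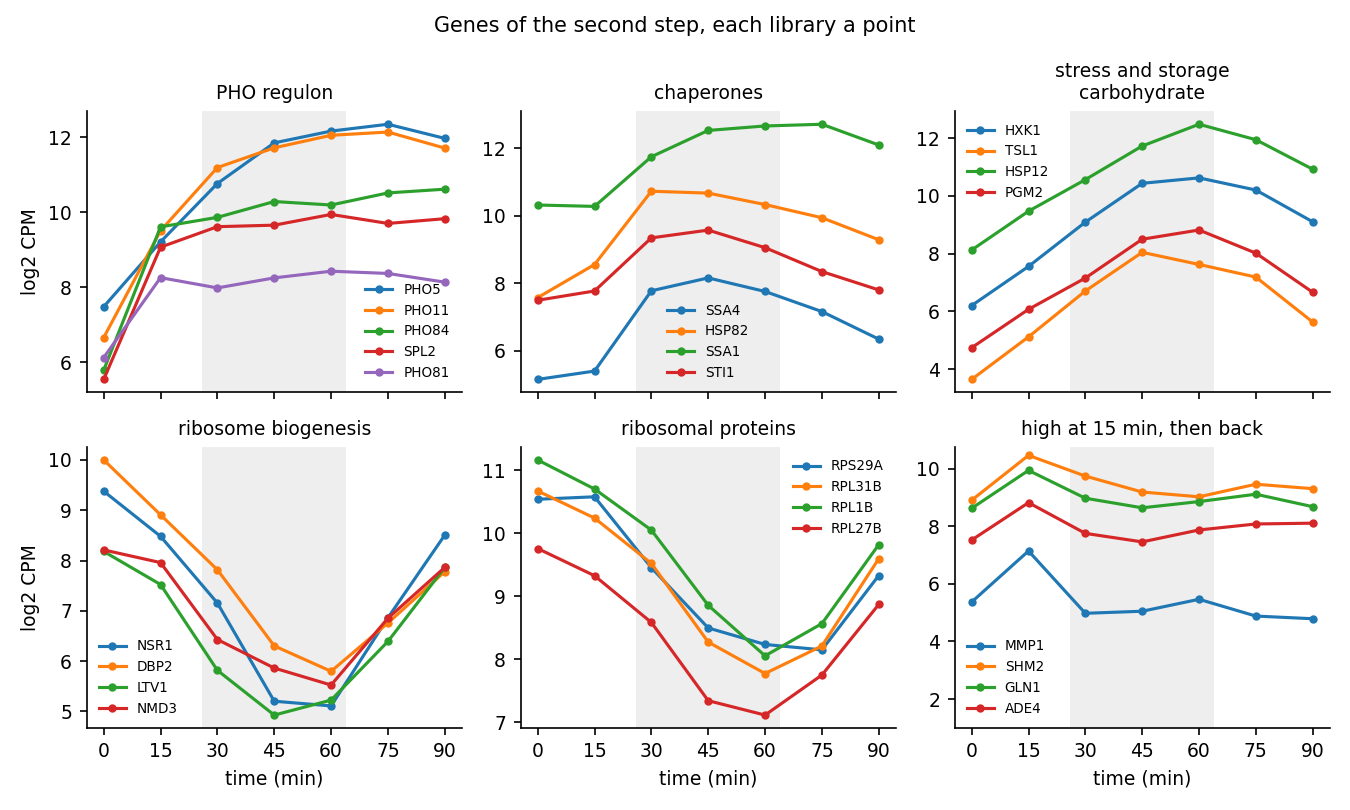
Log2 CPM of example genes (vertical axis) against minutes without phosphate (horizontal axis), with 1 panel per gene group and 1 point per library. PHO5 climbs through 60 min. PHO84 is 0.50 higher on average at 30 to 60 min, while PHO81 lies on both sides of 15 min. SSA4 and HSP82 step up at 30 min. NSR1 falls through 45 min and DBP2 through 60 min, and MMP1 is high only at 15 min.

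General stress genes were the largest group among the lists on the higher side. Of 44 general stress genes with values, 30 were called higher (68.2%, against 3.59% of all genes) and none lower, and the median difference was 1.31. The median first step of the list was 1.59, and its medians relative to 15 min were 0.78, 1.54 and 1.64 at 30, 45 and 60 min. HSP12, a small membrane-protecting stress protein, stood at 709, 1513, 3391 and 5716 CPM at 15, 30, 45 and 60 min. Every library exceeded the one before it, with a difference of 2.12 ± 0.97 and a slope of 3.06 (limma adjusted p = 4.93e-10). HSP26 and HSP42, small heat shock proteins, differed by 1.63 ± 0.89 and 1.67 ± 0.07. HSP26 was highest at 60 min, with 392 CPM, and HSP42 stood at 328, 356 and 329 CPM, against 106 CPM at 15 min. HXK1, a hexokinase, stood at 188, 545, 1385 and 1578 CPM (2.49 ± 0.84). It shares its place with the dubious frame YFR052C-A, whose values lie within 0.018 log2 units, so the 2 cannot be told apart. Not all stress genes joined. SPI1, a cell wall protein of the same list, had a first step of 3.33 and then stood at 149, 121 and 88.2 CPM, against 146 CPM at 15 min. GPD1, glycerol-3-phosphate dehydrogenase, had a first step of 2.02 and a second of 0.47 ± 0.33.

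Trehalose and glycogen genes, 7 of which are also on the stress list, gave 9 higher and none lower of 16 (56.2%, against 3.59%), with a median of 1.14. TSL1 stood at 34.7, 104, 264 and 197 CPM at 15, 30, 45 and 60 min, against 12.5 CPM at 0 min, a difference of 2.34 ± 0.68. PGM2, phosphoglucomutase, stood at 67.2, 143, 362 and 452 CPM (2.09 ± 0.88), and UGP1, which makes UDP-glucose, at 281, 565, 1103 and 1099 CPM (1.65 ± 0.56). GPH1, glycogen phosphorylase, stood at 151, 317 and 439 CPM, against 81.2 CPM at 15 min, and GDB1, the debranching enzyme, at 53.0, 65.6 and 59.4 CPM, against 14.8 CPM at 15 min. GSY2, the main glycogen synthase, stood at 33.1, 56.6 and 44.1 CPM, against 33.2 CPM at 15 min, and was not called. AGGGG stood in 95.5% of the 44 stress promoters and in 59.2% of the 157 promoters of all higher genes, against 23.5% of all promoters and 18.1% of the 315 promoters of lower genes. The stress list was partly built on genes known for this element.

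As a list, chaperone genes moved more in the second step than in the first. Of 23 Hsf1 targets, 10 were called higher (43.5%, against 3.59% of all genes) and none lower, with a median of 0.97. The median first step was only 0.27, and 8 of the 10 had not been called at 15 min. Another 4 of the 23, FES1, BTN2, CUR1 and APJ1, had risen 2-fold by 15 min. Their second steps were 0.03, 0.54, -0.07 and 0.09. SSA4 stood at 219, 285 and 216 CPM at 30, 45 and 60 min, against 42.1 CPM at 15 min and 35.5 CPM at 0 min. All 3 later libraries lay far above both earlier ones, with a difference of 2.50 ± 0.23. HSP82, an Hsp90, stood at 1688, 1625 and 1285 CPM, against 375 CPM at 15 min (2.02 ± 0.21), and STI1 at 648, 760 and 530 CPM, against 218 CPM at 15 min (1.55 ± 0.26). Both were past their highest level by 60 min. SSA1, a constitutive Hsp70, differed by climbing through 60 min, with 3427, 5884 and 6447 CPM, against 1237 CPM at 15 min and 1272 CPM at 0 min (2.03 ± 0.49). HSP104, the disaggregase, was 1.47 ± 0.11 higher. Of the 23 genes, 9 were at their highest of the 3 later libraries at 30 min, 11 at 45 min and 3 at 60 min. Their medians relative to 15 min were 0.97, 1.13, 0.81, 0.58 and 0.32 at 30, 45, 60, 75 and 90 min. The heat shock element stood in 52.2% of the 23 windows, 7.01% of those of higher genes and 1.10% of all promoters. This motif was added once the chaperone values were known.

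Ribosome assembly genes formed the core of the lower side. Of 80 with values, 71 were called lower (88.8%, against 6.88% of all genes) and none higher, with a median of -1.51 after a median first step of -0.59. NSR1 stood at 357, 143, 36.8 and 34.5 CPM at 15, 30, 45 and 60 min, against 666 CPM at 0 min. The values at 45 and 60 min were alike, and the difference was -2.66 ± 1.16 (slope -3.62, limma adjusted p = 1.22e-07). DBP3 stood at 29.8, 10.1 and 18.2 CPM, against 118 CPM at 15 min, so its lowest values lie near the floors. LTV1, a factor of small subunit export, stood at 56.3, 30.4 and 37.4 CPM, against 184 CPM at 15 min (-2.20 ± 0.45), and NMD3, the export adapter of the large subunit, at 86.2, 58.2 and 46.0 CPM, against 249 CPM at 15 min (-2.02 ± 0.46). CGR1, SDA1, ERB1 and RRS1, other assembly factors, differed by -2.11, -2.04, -2.22 and -1.96. NOP58, a snoRNA protein, differed by -1.90 ± 0.63, but its values cannot be told apart from those of the overlapping frame YOR309C. UTP15 stood alone in the list, with a difference of -0.03 and a value at 30 to 60 min near that of 15 min. Its place outside the others was noted once the values were known.

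Of 20 subunits and factors of RNA polymerases I and III, 12 were called lower (60%, against 6.88%), with a median of -1.08. All 20 were below 15 min in each of the 3 later libraries, as were 1337 of the 4621 genes compared. RPA190, the largest subunit of RNA polymerase I, stood at 141, 61.9 and 57.5 CPM, against 244 CPM at 15 min (-1.62 ± 0.72; slope -2.23, limma adjusted p = 1.45e-05). RET1, the second largest subunit of RNA polymerase III, stood at 41.4, 24.5 and 29.7 CPM, against 93.1 CPM at 15 min (-1.58 ± 0.38). PAC stood in 72.5% of the ribosome assembly windows, 70.0% of the polymerase windows and 45.1% of those of all lower genes, against 18.4% of all promoters. RRPE stood in 77.5%, 55% and 41.3% of the same sets, against 9.07% of all promoters.

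Ribosomal protein genes were lower in a gradual way, and of the times compared mostly lowest at 60 min. Of 137 with values, 66 were called lower (48.2%, against 6.88% of all genes) and none higher, with a median of -0.997 that lies on the 2-fold threshold, and differences from -1.85 to -0.04. The slope test called 133 of the 137 falling. In 125 each later library was below the one before it, and 128 were at their lowest of the 3 later times at 60 min. In 93 the 75 min library was lower still. The list medians relative to 15 min were -0.28, -1.04 and -1.59 at 30, 45 and 60 min, whereas those of ribosome assembly genes were -0.96, -1.80 and -1.69. RPS29A, the lowest, stood at 1529, 700, 361 and 301 CPM at 15, 30, 45 and 60 min (-1.85 ± 0.64; slope -2.40, limma adjusted p = 8.44e-08). RPL31B stood at 1210, 734, 309 and 219 CPM and RPL1B at 1666, 1060, 463 and 265 CPM. Many of these genes have a near-identical copy, so values of single members are uncertain. The list as a whole took 20.8%, 13.4% and 10.1% of reads at 30, 45 and 60 min, against 25.4% at 15 min and 32.7% at 0 min. Its windows held PAC in 13.9% and RRPE in 9.49%, shares near those of all promoters. Together the ribosomal protein, assembly and polymerase lists held 149 of the 318 lower genes, or 46.9%, and 5.13% of all genes compared. Stress, trehalose, chaperone and PHO genes held 51 of the 166 higher genes, or 30.7%, and 2.01% of all genes compared. Of 45 translation factors and tRNA synthetases 2 were called lower (4.44%, below the 6.88% of all genes), with a median of -0.44. The slope test called 19 of the 45 falling, against 9.22% of all genes.

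**Figure D3:**
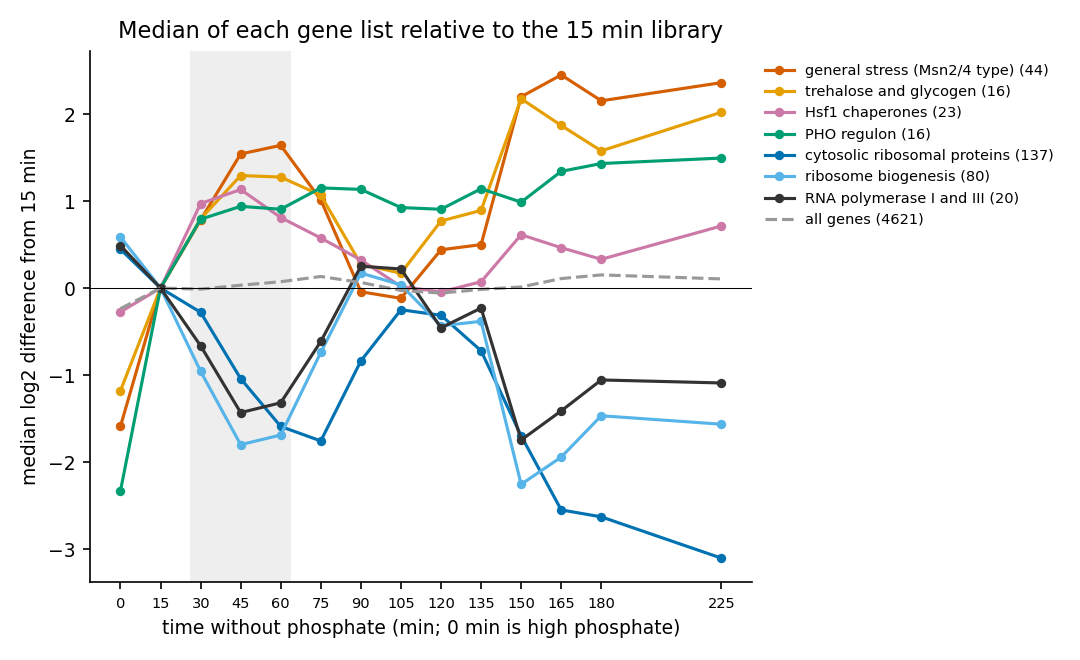
Median log2 difference from 15 min (vertical axis) of 7 gene lists, and of all genes as a dashed line, against minutes without phosphate (horizontal axis), with the times compared shaded. Within the first 90 min ribosome assembly genes are lowest at 45 min (-1.80) and ribosomal protein genes at 75 min (-1.76), and the stress list is highest at 60 min (1.64).

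In the tricarboxylic acid and glyoxylate cycles 4 of 18 genes were called higher (22.2%, against 3.59% of all genes). ACO1, aconitase, stood at 300, 575 and 748 CPM at 30, 45 and 60 min, against 126 CPM at 15 min and 118 CPM at 0 min (2.01 ± 0.68), and IDH1 and IDH2, the subunits of isocitrate dehydrogenase, differed by 1.60 and 1.38. In the glycolysis list 1 of 20 genes was called higher (5%, near the 3.59% of all genes), and the slope test called 9 rising. All 20 mean differences were above 0, with a median of 0.68. The called gene was TDH2, a glyceraldehyde-3-phosphate dehydrogenase (1.13 ± 0.42). In purine and one-carbon metabolism 5 of 25 were called lower (20%, against 6.88% of all genes), with a median of -0.79 after a median first step of 0.68. AAH1, adenine deaminase, was the largest, at 69.6, 11.7 and 31.6 CPM, against 148 CPM at 15 min (-2.33 ± 1.29). Of 52 amino acid synthesis genes, 4 were called lower, among them LEU9, GLN1 and LYS4. That is 7.69%, near the 6.88% of all genes, and the median was -0.16. Without the 60 min library LYS4 was at -0.92, short of 2-fold. INO1, inositol phosphate synthase, was the only gene called higher of 23 phospholipid genes, 4.35%, near the share of all genes. It stood at 56.3, 65.1 and 28.8 CPM, against 15.5 CPM at 15 min, and its slope did not pass (adjusted p = 0.401).

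Set beside the first step, from 0 to 15 min, most early changes neither grew nor shrank by another 2-fold. Both steps use the 15 min library, so an error in it would push them in opposite directions, and its part in the classes was not tested. Of the 559 genes that were 2-fold higher at 15 min than at 0 min, 76 went on up by another 2-fold (13.6%), 14 came back (2.50%) and 469 held (83.9%). These are 1.65%, 0.303% and 10.2% of the 4615 genes that had a value at 0 min as well. Of the 47 that were 2-fold lower, 10 went on down, 4 came back and 33 held, which are 0.217%, 0.0867% and 0.715% of the 4615 genes. In all 78.6% of genes passed neither step. Held means only that the second step was short of the rule. By 30 to 60 min 98 of the 469 and 9 of the 33 lay within 2-fold of 0 min, and PHO89 and VTC4, with second steps of 0.98 and 0.88, are among the 469. A second step without a first was more common among lower genes. It was seen in 294 lower genes, 6.37% of the same genes, and in 86 higher genes, 1.86%. The lower genes that started late had a median first step of -0.49, so that many had begun to move but were short of 2-fold. With library medians centred, 62 genes in place of 10 went on down. By the same centring 217 in place of 294 started down and 113 in place of 86 started up. The median first step of all genes was 0.24, and its part in these shifts was not tested.

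The genes that went on up were led by HXK1, PHO5, TSL1, PHO11, HSP12 and PGM2, and included 27 general stress and 7 PHO genes. Their median was 3.01 over 0 min by 30 to 60 min. AGGGG stood in 71.4% of their 70 windows and in 51.8% of the 83 windows of genes that started up. The genes that started up were led by SSA4, HOR2, a glycerol-1-phosphatase, SSA1, HSP82, ACO1 and GDB1. SSE2, an Hsp70 exchange factor not on any list, started up with 81.2, 149 and 116 CPM, against 28.1 CPM at 15 min. The 10 genes that went on down were BUD22, DBP2, DPH2, ENP1, ENP2, IPI3, LCP5, PWP2, REI1 and UTP5, most of them ribosome assembly factors. DBP2 stood at 225, 79.0 and 55.6 CPM at 30, 45 and 60 min, against 481 CPM at 15 min and 1025 CPM at 0 min.

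**Figure D4:**
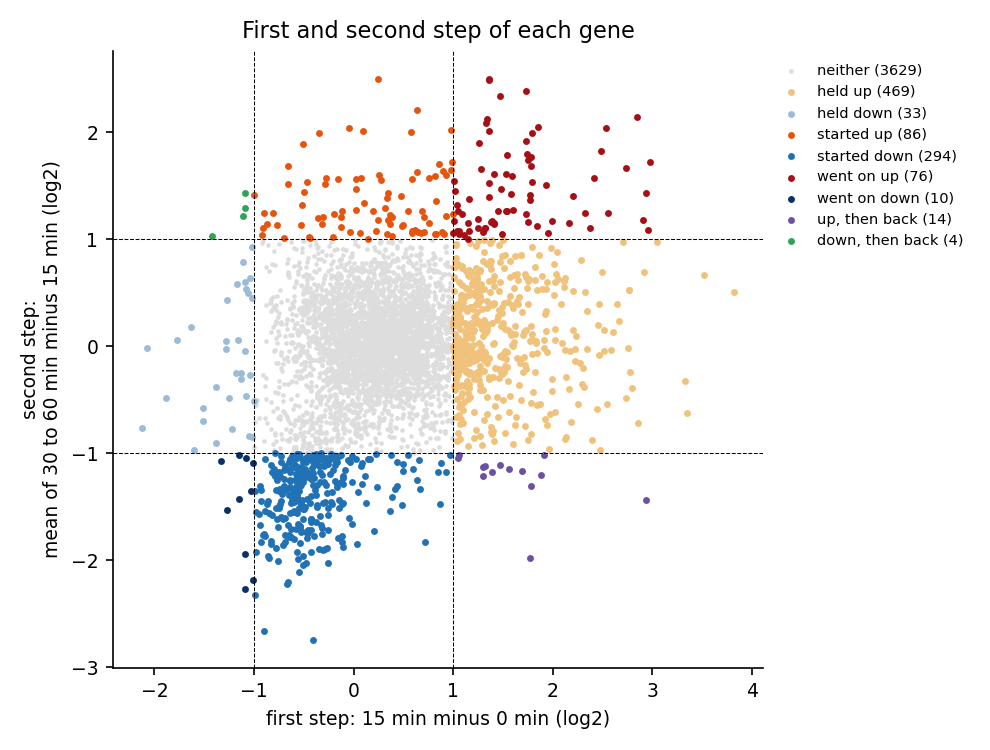
Second step (log2, mean of 30, 45 and 60 min minus 15 min, vertical axis) against first step (log2, 15 minus 0 min, horizontal axis) for 4615 genes, coloured by class. The 76 genes that went on up fill the upper right, the 294 that started down lie below the centre, and only 14 and 4 genes lie in the corners of reversal. Both axes share the 15 min library.

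The genes that came back were few. The 14 that were 2-fold higher at 15 min than at 0 min and then 2-fold lower included ADE4, AGP1, ALY1, BDS1, FRM2, GLN1, MMP1, MUM3, PFS1, SHM2, VHT1, YDL241W and YML122C. By 30 to 60 min 13 of them lay within 2-fold of 0 min, the exception being BDS1. MMP1, the S-methylmethionine permease, stood at 31.5, 33.1 and 44.1 CPM at 30, 45 and 60 min, against 141 CPM at 15 min and 41.3 CPM at 0 min. All later libraries lay together, 1.98 below 15 min, which leaves the 15 min library as the only high one. BDS1, a sulphatase, stood at 54.7, 95.0 and 66.1 CPM, against 189 CPM at 15 min and 24.7 CPM at 0 min. GLN1 stood at 502, 399 and 463 CPM, against 981 CPM at 15 min and 394 CPM at 0 min. AGP1, an amino acid permease, and ADE4, the first enzyme of purine synthesis, differed by -1.17 and -1.13. SHM2, cytosolic serine hydroxymethyltransferase, stood at 855, 583 and 520 CPM, against 1408 CPM at 15 min and 478 CPM at 0 min. TGACTC stood in 6 of the 14 windows (42.9%), against 8.47% of all promoters. The 4 genes with the opposite course were KIN2, MRH1, OAF1 and YML081W, at 8.86 to 18.5 CPM at 15 min, which is close to the floor of 7.39 CPM.

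Sulphur and methionine genes as a list had a median first step of 0.97 and a second of -0.39. Of 25, 3 were called lower (12%, against 6.88% of all genes), namely MMP1, SAM3 and SAM4. SAM3 was short of 2-fold without the 30 min library (-0.72), and SAM4 without the 60 min library (-0.75). SAM3, the S-adenosylmethionine permease, stood at 116, 191 and 244 CPM, against 355 CPM at 15 min, lowest at 30 min and climbing after it. The list medians relative to 15 min were -0.74, -0.45 and -0.14 at 30, 45 and 60 min, and then -0.48 at 90 min, -0.85 at 120 min and -1.41 at 225 min. MET6, methionine synthase, kept most of its first step, with 1445, 1374 and 1627 CPM, against 1768 CPM at 15 min and 631 CPM at 0 min. CACGTGA, the Cbf1 motif, which contains the Pho4 core CACGTG, stood in 64% of the 25 windows, against 3.40% of all promoters.

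The libraries after 60 min, which the call did not use apart from the shared 15 min library, show how long the second step lasted. The median of the 166 higher genes relative to 15 min was 1.01, 1.36 and 1.56 at 30, 45 and 60 min, then 1.25 at 75 min, 0.70 at 90 min and 0.39 at 105 min. At 105 min 21.8% of them with a value were still 2-fold above 15 min, and at 150 min 84.9%. The median of the lower genes was -0.86, -1.57 and -1.67 at 30, 45 and 60 min, -0.87 at 75 min, -0.11 at 90 min and -0.05 at 105 min, then -1.98 at 150 min. Only 5.66% were 2-fold below 15 min at 105 min, and 96.5% at 150 min. The median of all genes compared was -0.03 at 105 min and 0.01 at 150 min. The shares of all genes past 2-fold at these times were not computed. By 90 min the median of ribosome assembly genes was 0.17, with ribosomal protein genes still at -0.84, general stress genes were at -0.04 and PHO genes at 1.13.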

How the data were processed

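The study sequenced total RNA of 1 strain at 16 times, and per the submitters' processing notes reads were aligned with Bowtie to build R64. The counter, annotation, strand use and Bowtie version are not given in the sources used here. The authors deposited a table of log2 values. Raised back, each library sums to 1000000, so the deposited log2 values are log2 CPM, not ratios to the first time point. Steps between low values give whole reads (tolerance 0.01) for 96.1% to 97.2% of low values in the 5 libraries used, with a floor of 10 reads. Of 6701 entries, 51 without a name and 1 duplicated name were left out. Differences, counting errors and medians were computed in Python 3.11.15 with pandas 2.3.3. The main test was limma 3.58.1 in R 4.3.3 (lmFit, eBayes with trend, two-sided, Benjamini-Hochberg over 4621 genes), tested on simulated data. Since each time is 1 library, p-values measure only the spread between these libraries. Every called gene exceeded 2 counting standard errors, which the 2-fold rule and the floor of 10 reads nearly ensure, so this adds little to the calls.

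Genes named are the 12 largest and 12 smallest differences with a mean log2 of at least 5, PHO members, the 4 largest called genes per other list, 6 genes of each class and strain checks. Others were added after their values were seen: HSP26, HSP42, SPI1, GPD1, UGP1, GSY2, HSP104, FES1, BTN2, CUR1, APJ1, NOP58, UTP15, SSE2, PHO87, PHO4, PHO2, PHO80, PHO85, MET6 and the other members of the small classes. A gene that the rule names is not reported here. The members, the 33 lists and the tests were chosen with earlier results of these data known. No promoter table was given, so windows were cut from the RefSeq genome, which has the same build as the files. Alternatives covered the fold threshold, centring, quantile normalization, filters, the variance trend, the slope, added times and leaving out each later library.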

Additional observations from a re-analysis of the deposited data

How the results depend on the processing

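Among the named genes, no called difference changed sign under the alternatives run. The call asks for the same sign in each of the 3 later libraries, so leaving 1 of them out could not reverse a called gene. The unchanged signs thus add little to the calls. The small medians of the G1/S, G2/M, calcium and cell wall, hexose transport and phosphate signalling lists lay on both sides of 0 as later libraries were left out. Besides those given in the report, AGP1, CIT2, DPH2, GUA1, HXT2, LAP4, LCP5, PCL9, SHM2, TDH2 and TIF4631 were short of 2-fold without 1 of them. The 166 higher and 318 lower genes became 574 and 698 at 1.5-fold, 16 and 12 at 4-fold, and 97 and 187 with a mean log2 of at least 6. Leaving out 1 later library gave 145 to 228 higher and 254 to 433 lower genes. Without 30 min, 157 of 166 and 310 of 318 calls were shared with the full set. Limma called 315 rising and 426 falling genes with a slope, 0 higher without the trend, with centring, with quantile normalization or with the filter, and 0 to 394 higher and 0 to 531 lower on leaving out 1 library. The classes depended on the threshold. At 1.5-fold, 243 went on up, 149 went on down, 117 came back down, 36 came back up and 293 started up. With the filter these were 47, 2, 7, 0 and 38. With medians centred, 62 went on down, 9 came back down and 14 came back up. Over left-out libraries 61 to 89 went on up, 8 to 15 went on down, 13 to 18 came back down, 3 to 5 came back up, 80 to 134 started up and 231 to 400 started down. The chaperone median was 1.13 and the histone median -0.16 after quantile normalization. Leaving out 1 library gave medians of -0.15 to 0.042 for G2/M, -0.073 to 0.055 for calcium and cell wall stress, 0.37 to 0.55 for oxidative defence and -0.22 to -0.067 for phospholipid synthesis. The other 154 of 160 list medians and 885 of 894 named gene values moved by less than their spread. The cause of these shifts was not tested.

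Without overlapping or unmatched genes, an alternative chosen after seeing the data, 155 higher and 312 lower genes were left. The 15 min library cannot be left out or checked, and the 30 min library, with 603426 reads, sets the floor for weak genes. No paired analysis was possible because each time has a single library.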

Other observations

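None of 32 proteasome genes was called, and 3 were rising by slope. All 32 had a mean difference above 0, and the median was 0.39 (0.07 to 0.71). In each of the 3 later libraries 29 lay above 15 min, as did 1515 of the 4621 genes compared. None of 16 pheromone response genes was called either. Their median was 0.32, with 12 above 0, 4 below and 4 rising by slope. Among 18 genes of the M/G1 transition 2 were called higher (11.1%, against 3.59% of all genes). RME1, a repressor of meiosis, stood at 64.6, 58.7 and 59.4 CPM at 30, 45 and 60 min, against 20.7 CPM at 15 min. PCL9, a cyclin of the kinase Pho85, stood at 28.2, 81.1 and 70.0 CPM, against 22.9 CPM at 15 min. Histone genes differed by a median of -0.29, with none called.

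Mitochondrial ribosomal protein genes had a median of 0.10 over 67 genes and none called, beside the -0.997 of their cytosolic counterparts. Of the higher and lower genes, 66 of 166 and 168 of 318 were on some list. Outside the lists, and chosen after their values were seen, OLE1, the fatty acid desaturase, stood at 249, 107 and 151 CPM at 30, 45 and 60 min, against 587 CPM at 15 min. URA7, a CTP synthase, stood at 59.7, 26.7 and 24.9 CPM, against 117 CPM at 15 min. TRM1 and TRM11, which methylate transfer RNA, differed by -1.92 and -1.98. Beside GIT1, 17 genes had a value in all 3 later libraries and none at 15 min, and 57 had one at 15 min and in none of the 3.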
